A study of Mus musculus with 31 samples.

Results

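A set of 8 genes of the apoptosis machinery were followed through RNA sequencing of the embryonic mouse brain: Casp8, Casp9, Bcl2l11, Bid, Bcl2, Bcl2l1, Mcl1 and Xiap. They were chosen by name as caspases and members of the Bcl2 family, with Xiap as a caspase inhibitor, and all 8 of 8 were found in both deposited tables, among 34865 gene identifiers in the bulk table and 55487 in the Smart-seq2 table. The bulk table held 3 libraries of dorsal and 3 of ventral diencephalon from wild-type embryos at E10.5 (embryonic day). The Smart-seq2 table held 13 libraries labelled Axin2(-/-) and 12 labelled Axin2(+/+), made from medial cortex at E11.5, and Smart-seq2 is a full-length RNA sequencing method for very small inputs. By its title the study is about stem cell competition and Axin2, which encodes a feedback inhibitor of Wnt signalling.

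Both Smart-seq2 groups carried Emx1-cre(+/-) and the MADM cassettes, and came from breeding that the labels write as Emx1-CreERT2::MADM-11::Axin2LacZ/+. In MADM (mosaic analysis with double markers) a pair of homologous chromosomes is recombined, and the sister cells that result differ in genotype and in colour, which places null and wild-type cells in 1 tissue. Emx1 drives the recombinase in the dorsal forebrain, so the recombined cells are taken to be of cortical lineage. The labels call each Smart-seq2 sample a cell and name no embryo, so each genotype counted as 1 sample, with no test between genotypes. The labels also name no embryo for the bulk tissue, so p-values there reflect only how far 3 libraries of a region scatter, and this scatter may be technical.

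Apoptosis has an extrinsic arm, in which death receptors activate the initiator caspase-8, and an intrinsic arm, in which mitochondria release cytochrome c and the apoptosome activates the initiator caspase-9. Bcl2 family proteins decide whether the mitochondrial outer membrane is opened: the anti-apoptotic members Bcl2, Bcl-xL (encoded by Bcl2l1) and Mcl1 hold back Bax and Bak, and BH3-only proteins such as Bim (encoded by Bcl2l11) and Bid bind those guardians through a short helix, the BH3 domain. In the developing nervous system programmed death removes progenitors and young neurons, and Bcl2l1 and Mcl1 are known as survival genes of neurons and of neural progenitors respectively.

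The feature that ties the 5 Bcl2 family genes together is the BH3 core, and the coding sequence of each is shown for that reason, read from GENCODE M21 on GRCm38. Capitals mark the codons of the leucine, the glycine and the aspartate of the motif. Their positions are chr1:106712578-106712607 (minus strand) for Bcl2, chr2:152829700-152829729 (minus) for Bcl2l1, chr3:95659430-95659459 (plus) for Mcl1, chr2:128147144-128147173 (plus) for Bcl2l11 and chr6:120897292-120897321 (minus) for Bid, each within 1 coding exon.
Bcl2: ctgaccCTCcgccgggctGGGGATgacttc
Bcl2l1: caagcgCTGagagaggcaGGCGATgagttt
Mcl1: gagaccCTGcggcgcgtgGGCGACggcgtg
Bcl2l11: caggagCTGcggcggatcGGAGACgagttc
Bid: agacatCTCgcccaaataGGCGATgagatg
Between 12 and 18 of the 30 bases were identical in a pair. The pair with 12 was Mcl1 and Bid, and Bcl2 with Mcl1, Bcl2 with Bcl2l11, Bcl2l1 with Bcl2l11 and Mcl1 with Bcl2l11 shared 18.

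The pair of initiator caspases is shown by the codons around the catalytic cysteine, whose codon is in capitals. The Casp8 stretch lies at chr1:58844607-58844633 (plus strand). The Casp9 stretch spans an exon junction between chr4:141807241-141811543 (plus strand).
Casp8: ttcattcaggctTGCcaaggaagtaac
Casp9: ttcatccaggccTGCggtggtgagcag

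The bulk libraries held between 17604166 and 20838002 counts. Within each region library 3 stood apart: the chi-square statistic per gene was 8.69 between dorsal libraries 1 and 2 against 124 and 137 with library 3, and 21.0 between ventral libraries 1 and 2 against 74.4 and 99.3 with library 3. All 15 hypothalamic marker genes tested were higher in ventral. Of 16 thalamic and epithalamic genes, 13 were higher in dorsal and 1 was higher in ventral. All 12 cortical genes were higher in dorsal, although cortex is not in the label. Lhx2 is in both the thalamic and the cortical list. Genes of the small intestine made up 0.628, 1.09 and 0.313% of counts in ventral libraries 1 to 3, and at most 0.00199% in a dorsal library. Genes of the exocrine pancreas made up 0.293, 0.560 and 0.140% in the same ventral libraries. Genes of S, G2 and M phase were higher in dorsal for 14 of 16, at 0.138 to 0.178% of counts against 0.0363 to 0.0531%. Axin2, the gene targeted in the Smart-seq2 samples, had a mean CPM (counts per 1000000 counts) of 13.1 ± 5.21 in dorsal and of 3.11 ± 1.14 in ventral (edgeR adjusted p = 0.0175). Here and below, ± gives the SD over 3 bulk libraries of a region.

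The bulk comparison asks how the 8 genes differ between dorsal and ventral diencephalon. In edgeR's quasi-likelihood test 0 of 8 passed the threshold of 0.05 on the adjusted p, and 2, Casp8 and Casp9, had an unadjusted p under 0.05, as did 30.6% of all genes tested. By DESeq2 both were called, Casp9 as higher in dorsal and Casp8 as higher in ventral. Over all 14701 genes tested, 16.7% were called by edgeR, 7.14% higher in dorsal and 9.54% higher in ventral. DESeq2 called 24.2% in either direction. The 3 libraries of a region lay wholly above or below those of the other for 4 of 8 members, beside 39% of all genes. Casp9 and Bcl2l11 were the members with every dorsal library on top (19% of all genes), and Casp8 and Bid those with every ventral library on top (20%). The median log2 fold change, dorsal minus ventral, was 0.22 over the 8 members and 0.01 over all genes tested.

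**Figure D1:**
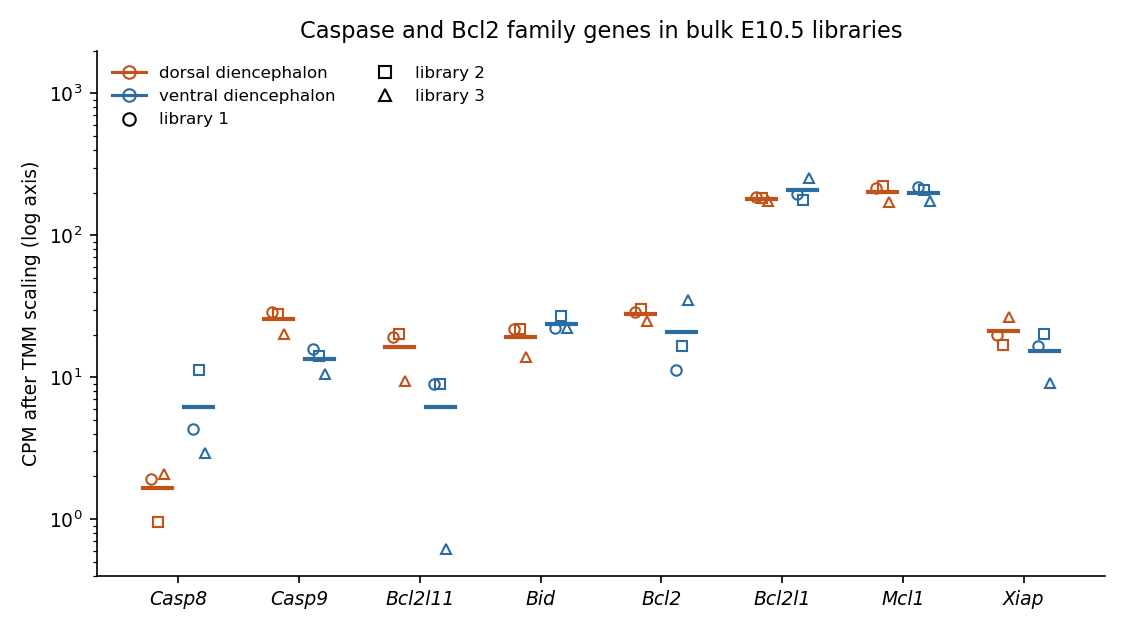
CPM after TMM scaling (log axis) of the 8 genes in each bulk library; circles, squares and triangles are libraries 1, 2 and 3, and bars are means over 3 libraries. Bcl2l1 and Mcl1 sit between 171 and 252 CPM in every library, and Casp8 and Casp9 separate the regions in opposite directions.

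Casp8, the initiator caspase of death receptors (ENSMUSG00000026029, GRCm38 chromosome 1, 58795374 to 58847503, plus strand), was the least abundant member per length in dorsal tissue. It stood at 1.93, 0.961 and 2.10 CPM in dorsal libraries 1 to 3 and at 4.34, 11.2 and 2.95 CPM in ventral libraries 1 to 3. The lowest ventral library was above the highest dorsal one, and ventral library 2 was far above the other ventral libraries. These values rest on 20 to 41 counts per dorsal and 53 to 208 counts per ventral library. The means were 1.66 ± 0.612 and 6.18 ± 4.44 CPM, 3.72-fold higher in ventral, with a log2 fold change of -1.89 (standard error 0.65, 95% interval -3.41 to -0.38, edgeR adjusted p = 0.0916). Leaving out ventral library 3 gave an adjusted p of 0.0241 (log2 fold change -2.26), while leaving out ventral library 2 gave 0.361 (log2 fold change -1.14). Over 14 alternatives the adjusted p ran from 0.00272 to 0.361, passing in 3. The ventral libraries had the same order in Casp8 (2, then 1, then 3) as in the share of intestinal, pancreatic, B cell and macrophage genes, and the part of such cells in the Casp8 level was not tested. In bulk tissue fewer cells of a type and less RNA per cell cannot be told apart.

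Casp9, the initiator caspase of the apoptosome (ENSMUSG00000028914, chromosome 4, 141793612 to 141815976, plus strand), stood on the other side. It was at 28.7, 27.9 and 20.2 CPM in dorsal libraries 1 to 3 and at 15.9, 14.2 and 10.6 CPM in ventral libraries 1 to 3. Every dorsal library was above every ventral one, and library 3 was the lowest of its region in both. The means were 25.6 ± 4.65 and 13.6 ± 2.72 CPM, 1.89-fold higher in dorsal, with a log2 fold change of 0.92 (standard error 0.27, 95% interval 0.30 to 1.53, edgeR adjusted p = 0.0522). Without dorsal library 3 the adjusted p was 0.0305 and the log2 fold change 1.07, and over 14 alternatives the adjusted p ran from 0.000682 to 0.210, passing in 5. The exons of Casp9 overlap 94 bases each of Cela2a and Ctrc, pancreatic protease genes on the minus strand, and without strand such reads cannot be told apart. Both neighbours were higher in ventral, opposite to Casp9, with Cela2a at 0.357 ± 0.0860 and 168 ± 124 CPM in dorsal and ventral.

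The upstream sequences of Casp8 and Casp9 are shown as the initiator caspases of the extrinsic and the intrinsic arm, whose levels lay on opposite sides between the regions. Each is the 250 bases before the RefSeq start on GRCm38.p6, at chr1:58802252-58802501 (plus strand) for Casp8, which lies inside the longer GENCODE gene, and chr4:141793362-141793611 (plus strand) for Casp9. Capitals mark GGGCGG, the GC box, searched on both strands.
Casp8: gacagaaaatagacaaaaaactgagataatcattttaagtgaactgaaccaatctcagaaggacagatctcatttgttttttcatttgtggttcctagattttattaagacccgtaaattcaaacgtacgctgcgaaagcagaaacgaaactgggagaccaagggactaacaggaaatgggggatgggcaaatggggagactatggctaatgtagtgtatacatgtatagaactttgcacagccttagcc
Casp9: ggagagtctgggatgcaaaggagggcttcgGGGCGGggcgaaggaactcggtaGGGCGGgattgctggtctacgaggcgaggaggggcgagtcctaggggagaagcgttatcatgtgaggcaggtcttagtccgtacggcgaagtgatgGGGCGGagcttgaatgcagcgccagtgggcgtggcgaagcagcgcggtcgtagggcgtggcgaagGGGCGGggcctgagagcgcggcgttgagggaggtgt
The Casp9 window was 66.0% G and C with 25 CG dinucleotides and 4 GC boxes, while the Casp8 window was 39.6% G and C with 5 CG dinucleotides and no GC box. Over all 32851 windows of this kind the medians were 52.4% and 6 CG dinucleotides, and 32.7% held a GC box. Of the 13 windows of the members, which include several for some genes, 8 held a GC box, and every member except Casp8 and Bcl2l1 had such a window. CCAAT was found for Casp8 and Bcl2l11 (33.8% of all windows), TATAAA for Xiap (12.4%), and the E2F-type motif TTTCGCGC for Bcl2l1 (0.256%). The other E2F-type motifs searched (TTTCCCGC, TTTGGCGC and TTTGGCGG) and the E-box CACGTG were in none of the 13 windows of the members. A match describes letters in this window and is no measured binding site.

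Bcl2l11, which encodes the BH3-only protein Bim (chromosome 2, 128126038 to 128162547, plus strand), stood at 19.3, 20.2 and 9.40 CPM in dorsal libraries 1 to 3 and at 8.98, 9.03 and 0.612 CPM in ventral libraries 1 to 3. Library 3 was the lowest in each region, with 11 counts in ventral library 3, and the highest ventral library was just below the lowest dorsal one. The means, 16.3 ± 5.97 and 6.21 ± 4.84 CPM, differed 2.62-fold, and the log2 fold change was 1.39 (standard error 0.81, 95% interval -0.47 to 3.25, edgeR adjusted p = 0.291). With library 3 of each region left out, an alternative added once the data had been seen, it was 1.12 with an adjusted p of 0.000533.

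Bid, the BH3-only protein that caspase-8 cleaves to link the extrinsic arm to mitochondria (chromosome 6, 120891930 to 120916853, minus strand), differed little between regions. It was at 22.0, 22.0 and 14.0 CPM in dorsal libraries 1 to 3 and at 22.3, 26.9 and 22.3 CPM in ventral libraries 1 to 3. The regions did not overlap, but by a gap far smaller than the spread within either. The log2 fold change was -0.30 (standard error 0.26, 95% interval -0.89 to 0.29, edgeR adjusted p = 0.478). Bid shares 628 exon bases with Bcl2l13 on the opposite strand, a gene at 64.8 ± 21.5 and 48.7 ± 9.65 CPM in dorsal and ventral. Without library 3 of both regions the log2 fold change of Bid was -0.17.

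Among the guardians, Bcl2 (chromosome 1, 106538178 to 106714274, minus strand) was the most uneven between libraries. It was at 29.0, 30.4 and 24.9 CPM in dorsal libraries 1 to 3 and at 11.2, 16.5 and 35.3 CPM in ventral libraries 1 to 3. Ventral libraries 1 and 2 were below every dorsal library, and ventral library 3 was above all of them. The log2 fold change was 0.42 with all libraries (standard error 0.40, 95% interval -0.51 to 1.35, edgeR adjusted p = 0.527). With ventral library 3 left out it was 0.99 (adjusted p = 0.0217, in a fit that called 24.7% of all genes). Of 14 alternatives, Bcl2 passed the threshold in 2, both without ventral library 3.

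Bcl2l1 (chromosome 2, 152780668 to 152831728, minus strand) was at 187, 182 and 174 CPM in dorsal libraries 1 to 3 and at 195, 177 and 252 CPM in ventral libraries 1 to 3. Dorsal libraries lay within a narrow band, and ventral library 3 was again the highest. Its log2 fold change was -0.20 (standard error 0.18, 95% interval -0.61 to 0.21, edgeR adjusted p = 0.494). Mcl1 (chromosome 3, 95658788 to 95663176, plus strand) was at 214, 225 and 171 CPM in dorsal and at 218, 209 and 174 CPM in ventral libraries 1 to 3. The regions overlapped throughout, with library 3 the lowest in both, and the log2 fold change was 0.02 (standard error 0.18, 95% interval -0.38 to 0.43, edgeR adjusted p = 0.949). These intervals leave room for differences of that size in either direction for both genes. Without library 3 of both regions the log2 fold changes of Bcl2l1 and Mcl1 were -0.024 and 0.026.

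Xiap, which encodes an inhibitor that binds caspases directly (chromosome X, 42059679 to 42109656, plus strand), was at 19.7, 16.9 and 26.5 CPM in dorsal and at 16.7, 20.2 and 9.07 CPM in ventral libraries 1 to 3. Library 3 was the highest dorsal and the lowest ventral value, and the other 4 libraries were interleaved. Its log2 fold change was 0.46 (standard error 0.35, 95% interval -0.34 to 1.25, edgeR adjusted p = 0.419), and -0.022 without library 3 of both regions.

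Without library 3 of either region, 4 of 8 members were called. Casp9 (log2 fold change 0.89, edgeR adjusted p = 0.000682), Bcl2 (1.09, adjusted p = 0.000844) and Bcl2l11 were higher in dorsal, and Casp8 (-2.43, adjusted p = 0.00272) was higher in ventral. Of all genes in that fit, 26.4% were called higher in dorsal and 28.3% higher in ventral. Bid, Bcl2l1, Mcl1 and Xiap passed in none of the 14 alternatives.

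Per kilobase of exon, taken as all annotated exons of a gene together, Mcl1 and Bcl2l1 were the most abundant members in both regions. Mcl1 stood at 59.5 CPM per kilobase in dorsal and 58.6 in ventral, and Bcl2l1 at 39.5 and 45.4. The next, Bid, was at 5.45 and 6.71. Casp9 was at 4.92 and 2.61, Bcl2 at 3.07 and 2.29, Xiap at 2.22 and 1.62, Bcl2l11 at 2.03 and 0.773 and Casp8 at 0.574 and 2.14 CPM per kilobase. Casp8 was thus the lowest of the 8 in dorsal, and Bcl2l11 the lowest in ventral. The Bcl2l1 level per length was 0.652, 0.605 and 0.758 of the Mcl1 level in dorsal libraries 1 to 3. In ventral libraries 1 to 3 it was 0.668, 0.631 and 1.08, so that Bcl2l1 was above Mcl1 in ventral library 3 alone.

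The other apoptosis genes give the setting. Of 58 further genes in 6 lists, 42 were tested, 4 were higher in dorsal, 3 were higher in ventral and 35 were not called, and 11 had an unadjusted p under 0.05. The 7 calls are 16.7% of the 42, the share over all genes, and the 11 are 26.2% of the 42, beside 30.6% of all genes. The median log2 fold change of the 42 was 0.07. Of the 7 BH3-only genes tested, edgeR called 0, and 0 had an unadjusted p under 0.05, a list too short to read against the 16.7% and 30.6% of all genes. The most abundant of them were the mitophagy genes Bnip3l, with 217 ± 30.5 and 193 ± 20.8 CPM in dorsal and ventral, and Bnip3, with 60.0 ± 4.80 and 64.6 ± 7.22 CPM.

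Higher in dorsal were Birc5, Birc6, Pidd1 and Parp1. Birc5 encodes survivin, an inhibitor-of-apoptosis family protein needed for cell division, and was at 58.4, 62.2 and 102 CPM in dorsal and 20.7, 23.4 and 23.5 CPM in ventral libraries 1 to 3 (log2 fold change 1.72, standard error 0.26, edgeR adjusted p = 0.00335). Between regions Birc5 went the same way as the S, G2 and M phase genes named above. Within dorsal, library 3 was the highest for Birc5 but had the lowest share of those genes, 0.138% of counts. Their part in the Birc5 level was not tested. Parp1, a DNA repair enzyme cleaved by executioner caspases, was at 233 ± 24.6 against 87.5 ± 19.0 CPM (1.42, adjusted p = 0.00314). Pidd1, a scaffold of the caspase-2 platform, was at 20.3 ± 2.99 against 5.13 ± 1.34 CPM (1.98, adjusted p = 0.00429). Birc6, a giant ubiquitin ligase of the same inhibitor family as Xiap, was at 73.6 ± 11.1 against 43.3 ± 3.15 CPM (0.77, adjusted p = 0.0254). The Birc6 call was lost without dorsal library 1 (adjusted p = 0.121), ventral library 1 (0.0913) or ventral library 2 (0.0824).

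Higher in ventral were Casp1, Casp4 and Bcl2l14, all close to 0 in dorsal, so they reached the mean of 1 CPM needed for testing through ventral. Casp1, an inflammatory caspase that matures interleukins, was at 0.0939, 0.144 and 0 CPM in dorsal and 6.56, 16.2 and 13.1 CPM in ventral libraries 1 to 3 (fitted log2 fold change -7.07, edgeR adjusted p = 0.00110). Casp4, which also acts in inflammation, was at 0.410 ± 0.381 against 3.38 ± 1.44 CPM (-3.04, adjusted p = 0.0427). Its call was lost without dorsal library 1 (adjusted p = 0.165), dorsal library 2 (0.154), ventral library 1 (0.0813) or ventral library 2 (0.0945). Bcl2l14 was at 0.0755 ± 0.131 against 2.56 ± 1.02 CPM (-5.06, adjusted p = 0.0297), and its call was lost without dorsal library 1 (adjusted p = 0.108) or dorsal library 2 (0.102). Macrophage genes made up 0.00333, 0.00590 and 0.00114% of counts in ventral libraries 1 to 3 and 0.000175 to 0.000648% in dorsal ones. Bcl2l14 had the same order in the ventral libraries (3.11, 3.19 and 1.39 CPM). Casp4 (2.12, 3.08 and 4.95 CPM) and Casp1 did not. The part of macrophages or gut tissue in these 3 genes was not tested.

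**Figure D2:**
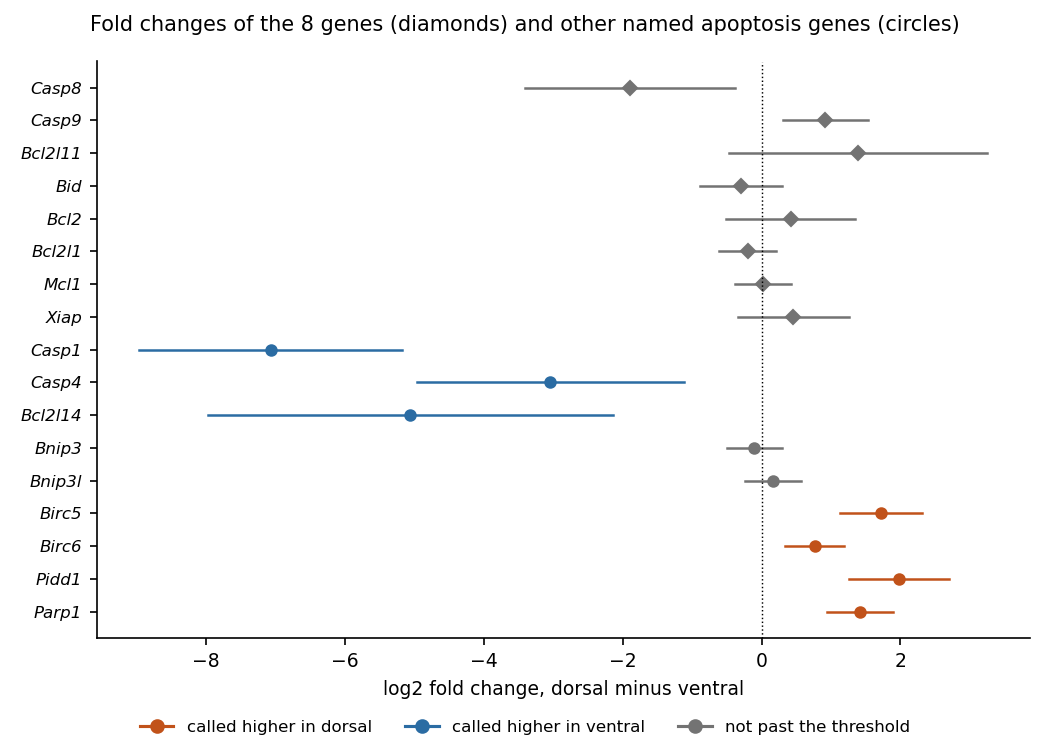
Log2 fold change, dorsal minus ventral, with its 95% interval for the 8 genes (diamonds) and the other apoptosis genes named in the text (circles), coloured by call at an adjusted p of 0.05. All 8 diamonds are grey (not past the threshold), the grey circles are Bnip3l and Bnip3, and the coloured circles are Birc5, Birc6, Pidd1 and Parp1 on the dorsal side and Casp1, Casp4 and Bcl2l14 on the ventral side.

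The Smart-seq2 comparison asks how the genes differ between Axin2-null and wild-type cells of the medial cortex. Values are TPM (transcripts per 1000000), and detection means 1 TPM or more. Axin2 itself ranged from 0 over a median of 3.28 to 22.4 TPM in null and from 4.32 over 13.2 to 35.9 TPM in wild-type libraries, so the groups overlapped, and the labels do not give which part of the gene the null allele lacks. The libraries detected 7863 to 11852 genes (median 10791) in null and 8693 to 12209 (median 11271) in wild type. Summed cortical markers were at 324 to 911 TPM in null and 454 to 910 TPM in wild type, and neural progenitor markers at 1395 to 3213 and 1135 to 3041 TPM. Red blood cell genes were also present, at 2749 to 51767 TPM in null and 1263 to 32471 TPM in wild type. Mesenchymal genes summed to 38.7 to 308 TPM in null and 51.2 to 352 TPM in wild type. Endothelial genes summed to 32.7 to 124 and 19.9 to 205 TPM.

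The difference of mean log2(TPM + 1), null minus wild type, had a median of -0.22 over the 13680 genes whose mean reached 1 TPM. It reached 1 in size for 9.52% of them, 1.39% higher in null and 8.14% higher in wild type. Of the 8 members 1 reached that size, Casp8, higher in wild type. The median over the members was -0.26, with 2 members above 0 and 6 below.

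**Figure D3:**
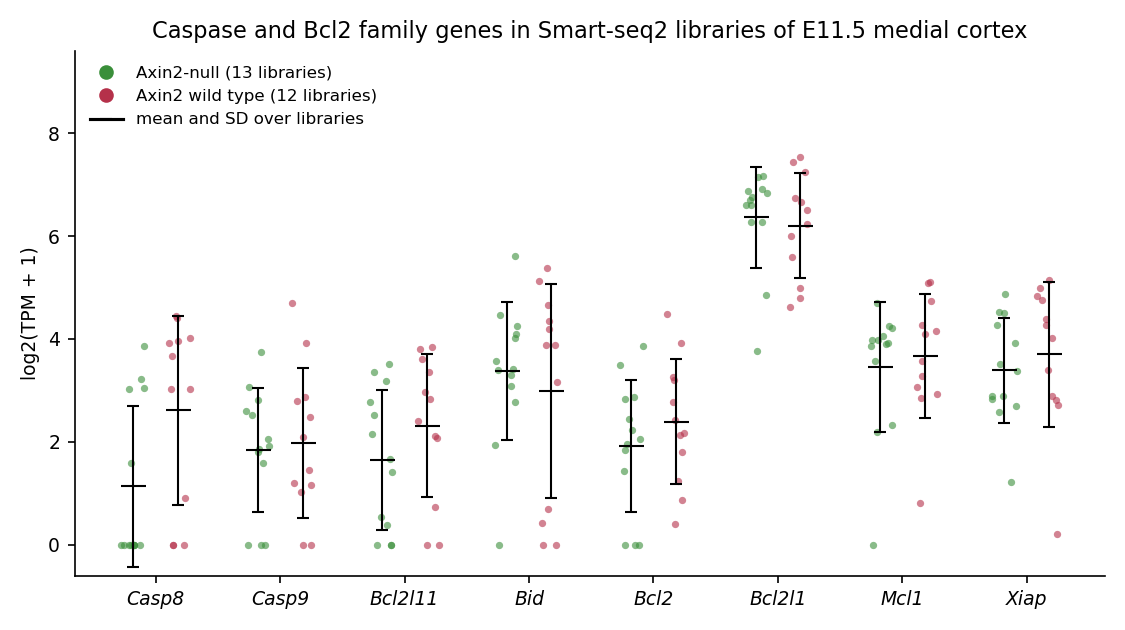
Log2(TPM + 1) of the 8 genes in 13 Axin2-null (green) and 12 wild-type (red) Smart-seq2 libraries; each dot is a library, and bars are the mean with 1 SD. Bcl2l1 lies above the other genes in both genotypes, and Casp8 has 8 null and 3 wild-type libraries at 0.

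Casp8 was detected in 5 of 13 null libraries (38.5%, exact 95% interval 13.9 to 68.4%) and 8 of 12 wild-type libraries (66.7%, 34.9 to 90.1%). These intervals overlap and cover counting error only. Its TPM ran from 0 over a median of 0 to 13.5 in null and from 0 over a median of 9.42 to 20.9 in wild type. Null libraries were mostly at 0 while most wild-type libraries held transcripts, yet the ranges overlapped. Mean log2(TPM + 1) was 1.13 ± 1.57 in null and 2.61 ± 1.83 in wild type (SD over libraries), a difference of -1.48, smaller in size than either SD. Leaving out any single library kept this difference between -1.72 and -1.31. Relative to the median of all genes it was -1.26, and it was -0.52 with a pseudocount of 10 and -3.34 between medians. Macrophage genes summed to 0 to 153 TPM (median 29.5) in null and 0 to 865 TPM (median 23.8) in wild type. None of these 10 genes was at 0 in every library of a genotype. Summed endothelial genes had a median of 52.0 TPM in null and 113.5 TPM in wild type. The part of either cell type in the Casp8 level was not tested.

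Casp9 was similar in the 2 genotypes, from 0 over a median of 2.76 to 12.5 TPM in null and from 0 over 2.52 to 24.9 TPM in wild type, and was detected in 10 libraries of each. The difference was -0.13, and it was 0.09 relative to the median of all genes, so its direction depended on that centring. Bcl2l11 ran from 0 over 2.19 to 10.4 TPM in null and from 0 over 5.24 to 13.3 TPM in wild type, with a difference of -0.66, which was -0.05 without the 5 libraries that detect fewer than 9000 genes. Bid was detected in 12 of 13 null and 8 of 12 wild-type libraries, with medians of 9.72 and 13.7 TPM. Its difference was 0.40 between means of log2 values but -0.46 between medians.

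The guardian Bcl2l1 was detected in all 25 libraries, from 12.6 over 103 to 143 TPM in null and from 23.5 over 82.2 to 186 TPM in wild type. The genotypes covered much the same range, and the difference was 0.17. Mcl1 ran from 0 over 14.1 to 25.1 TPM in null and from 0.760 over 13.5 to 33.6 TPM in wild type, a difference of -0.21 that was 0.02 relative to the median of all genes. Bcl2 ran from 0 over 3.18 to 13.5 TPM in null and from 0.330 over 3.94 to 21.3 TPM in wild type, a difference of -0.47. Xiap was detected in 13 of 13 null and 11 of 12 wild-type libraries, with medians of 9.33 and 16.9 TPM and a difference of -0.31. For each of the 8 members, Casp8 included, the difference was smaller than the SD of log2(TPM + 1) over the libraries of either genotype.

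By mean over the 25 libraries, Bcl2l1 came first at 92.0 ± 47.0 TPM. Xiap at 14.2 ± 9.91, Mcl1 at 14.0 ± 8.79 and Bid at 13.8 ± 12.5 TPM followed. Casp8 at 6.0 ± 7.03, Bcl2 at 5.16 ± 5.17, Bcl2l11 at 4.71 ± 4.41 and Casp9 at 4.53 ± 5.59 TPM came last. This order pools the genotypes: the Casp8 mean was 2.94 TPM in null, the lowest of the 8 genes there, and 9.32 TPM in wild type, where it stayed in place 5. Below Bcl2l1, no neighbours in this order differed beyond their spread. A library held 4 to 8 of the members at 1 TPM or more, with a median of 7 in both genotypes, and all 8 were found in 3 null and 4 wild-type libraries.

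Bcl2l1 was above Mcl1 in 24 of 25 Smart-seq2 libraries, 12 of 13 null and 12 of 12 wild type. Over the 24 libraries with Mcl1 above 0, the ratio of Bcl2l1 to Mcl1 ran from 0.852 to 35.1, with a median of 6.33 in null and 5.05 in wild type. In bulk diencephalon the order per length was the reverse in 5 of 6 libraries, as given above. That order rests on the annotated exon lengths, 4586 bp for Bcl2l1 and 3418 bp for Mcl1, and not on the transcripts expressed. Before division by length, Bcl2l1 and Mcl1 were closer, at means of 181 and 203 CPM in dorsal and 208 and 200 CPM in ventral. The tables differ in method, stage, tissue, normalization and possibly the gene lengths used. These cannot be told apart, and no test was made across the tables.

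**Figure D4:**
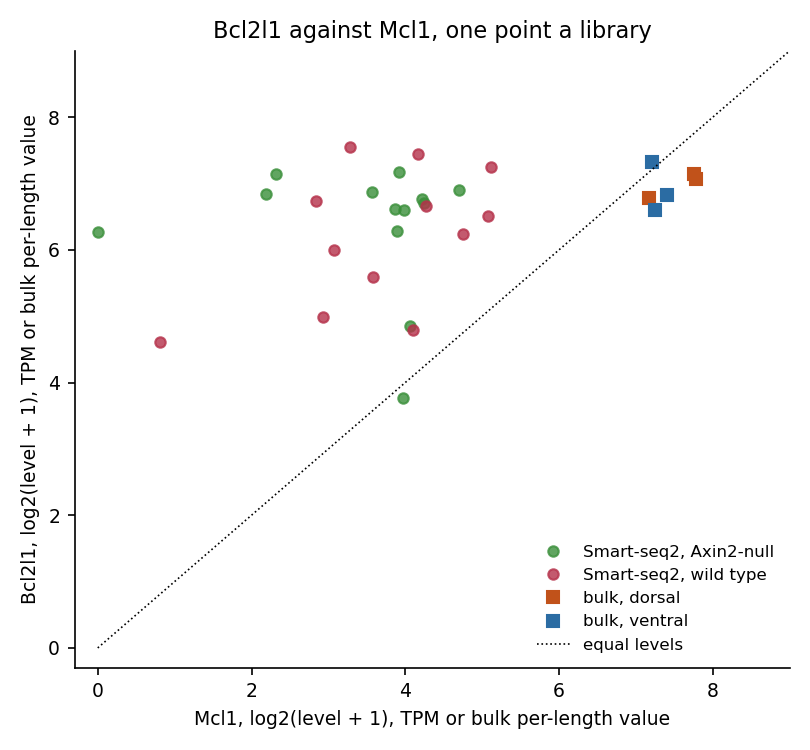
Bcl2l1 against Mcl1 in each library on a log2(level + 1) scale, with TPM for Smart-seq2 libraries (circles) and counts per length, scaled to 1000000 per library, for bulk libraries (squares); the tables were normalized separately, and the dotted line marks equal levels. All but 1 of the Smart-seq2 libraries lie above the line, and all but 1 of the bulk libraries lie below it.

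The members showed little shared order across the 25 Smart-seq2 libraries. Spearman's rho between pairs ran from -0.27 (Bcl2 with Mcl1) to 0.38 (Casp8 with Bcl2l11), and rho with the number of genes detected ran from 0.08 (Bcl2) to 0.29 (Mcl1). The genes with the TPM most like that of a member were Bcor (rho 0.67) and Tjp3 (0.66) for Casp8, Axl (0.72) and Tubd1 (0.65) for Casp9, and Dcun1d3 (0.69) and Bscl2 (0.68) for Bcl2. They were Tasp1 (0.79) and Bclaf3 (0.71) for Bcl2l1, Tk2 (0.73) and Rad9b (0.71) for Mcl1, and Polg (0.74) and Nfatc4 (0.73) for Bcl2l11. For Bid they were Pdcd7 and Islr (0.68 and 0.67), and for Xiap Srbd1 and Adpgk (0.80 and 0.73). These are the highest of 8446 or 8447 values per member over the same 25 libraries, which differ in the number of genes detected, and are a description only.

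Of the 58 further apoptosis genes, 35 reached a mean of 1 TPM, and none of them reached a difference of 1 in either direction, beside 9.52% of all genes. Their median difference was -0.32. The pore-forming Bax was at 332 ± 108 TPM in null and 310 ± 77.6 TPM in wild type, and Bnip3l, a BH3-type protein of mitophagy, at 289 ± 106 and 306 ± 162 TPM. Birc5 was at 435 ± 162 and 382 ± 126 TPM. Cflar, an inhibitor of caspase-8 activation, was at 33.7 ± 27.4 and 19.5 ± 25.3 TPM, a difference of 0.89. Of the other genes named by the rule, Casp6 (difference -0.00346), Bcl2l12 (-0.05), the BH3-only gene Bad (0.09), Diablo (0.21), which encodes an antagonist of Xiap, and Cycs (0.16), which encodes cytochrome c, were close to 0. Pidd1 and Parp1, both higher in dorsal diencephalon, were at -0.78 and -0.43. All of these differences were smaller than the SD of log2(TPM + 1) in both genotypes.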

How the data were processed

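The submitters' processing notes list the tools Trimmomatic, STAR 2.7.0a and featureCounts and the builds mm10 and GRCm38. The counting strand is not given in the sources used here. The bulk table is named TPM, but its columns sum to 17604411 to 20838226 and 46.6% of nonzero entries lay within 0.0001 of a whole number, so the deposited values were treated as estimated counts and rounded. The deposited Smart-seq2 values are TPM, summing to 999999.57 to 1000000.7 per library, so depth is unknown. Its columns give a genotype and no sample number. Symbols of 34581 of 34865 bulk and 55141 of 55487 Smart-seq2 identifiers came from GENCODE M21, and 0 columns were left unmapped.

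Bulk counts of genes averaging 1 CPM or more were tested with edgeR 4.0.16 (TMM scaling, quasi-likelihood F test, Benjamini-Hochberg adjustment over all genes tested, threshold 0.05) in R 4.3.3, and with DESeq2 1.42.0 as an alternative. The code was tested on simulated data. There the bulk comparison called 0% of genes changed 1.5-fold, 5.97% of those changed 2-fold and 72.73% of those changed 4-fold. Standard errors are the log2 fold change divided by the square root of F. Values are means ± SD over 3 libraries. Smart-seq2 differences used a pseudocount of 1, and a difference of 1 was the size counted. Exact intervals are Clopper-Pearson.

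The 8 genes and all lists were chosen with earlier results of these data known. Named besides them are, per apoptosis list, up to 3 genes per direction past the threshold (in Smart-seq2 up to 2 with a difference of 1), or the 2 most abundant where none passed, and the 2 genes most alike to each member among genes averaging 5 TPM or more and detected in at least 50% of libraries. Cela2a, Ctrc and Bcl2l13 are named for overlap. A gene that the rule names is not reported here. The alternatives changed the test, scaling, filter, block, pseudocount, detection limit and libraries used.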

Additional observations from a re-analysis of the deposited data

How the results depend on the processing

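DESeq2 called 1 of the 8 genes for dorsal and 1 for ventral diencephalon, beside 1542 and 2009 of all 14701 genes. With library totals only, 1 was higher in dorsal, beside 1135 of 14701 genes. With the replicate number as a block it was also 1 (Casp9, log2 fold change 0.92, edgeR adjusted p = 0.0446), beside 924 of 14701 genes. Bcl2l14 (adjusted p = 0.0899) and Birc6 (0.0583) then lost their calls. The numbers are not said to pair libraries, and deviations of same-numbered libraries correlated at 0.10, 0.15 and 0.16. Those of differently numbered libraries ran from -0.19 to 0.19. Without a filter on low counts, 6 other apoptosis genes were higher in ventral. With at least 0.5 CPM in both regions there were 0, with 821 of all 14431 genes higher in ventral. That filter left out Casp1, Casp4 and Bcl2l14, all under 0.5 CPM in dorsal. They were not tested there, so the 0 does not show calls lost on testing. Mcl1 had a log2 fold change of -0.021 in that fit. Leaving out 1 library called 500 to 1695 genes for dorsal and 839 to 1928 for ventral, of 14527 to 14809 tested. Such fits called 0 to 1 of the 8 for dorsal, 0 to 1 for ventral, and 1 to 6 other apoptosis genes higher in ventral. Mcl1 then ran from -0.10 to 0.14, negative without dorsal library 1, dorsal library 2 or ventral library 3 and never past the threshold. Without library 3 of both regions, a setting added after seeing the data, 3843 genes were called for dorsal and 4117 for ventral. These were of 14551 genes tested and included 3 and 1 of the 8, and 11 and 13 other apoptosis genes. Xiap was then at -0.022, the lowest of its values with libraries left out, which reached 0.70. The causes were not tested. In Smart-seq2, 3 of the 8 genes were at least 1 higher in wild type with a pseudocount of 0.1 (Casp8, Bcl2 and Bcl2l11) and 0 with a pseudocount of 10. The share of all genes at these pseudocounts was not computed, so these counts cannot be read as particular to the 8. The differences of Casp8, Bcl2, Bcl2l11 and Xiap were each below 0 in 30 of 30 alternatives, most of which leave out 1 library. The median difference of all genes was -0.22. The Casp8 difference ran from -3.34 to -0.52. Leaving out libraries with fewer than 50% of the median gene number gave no value, since 0 libraries were that low. At 20 to 41 dorsal counts for Casp8 and 11 ventral counts in library 3 for Bcl2l11, small differences could not be resolved. Differences of 2-fold were rarely called in simulated data, where fewer genes were changed than were called here. A missing call does not show equal levels for the other members either.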
